A study of Mus musculus with 10 samples.

Results

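The genes described here are 39 genes of DNA replication and nucleotide synthesis, chosen by name: the loading factors and subunits of the replicative helicase, the replicative polymerases, the sliding clamp and its loader, the enzymes that join and trim the lagging strand, the enzymes that make deoxynucleotides, and the factors that restore chromatin behind the fork. All 39 were measured among 19938 genes with a single-symbol probe set, each gene by its probe set with the highest mean, and all 39 passed the filter on low mean level that left 14953 genes to test. RNA came from the prostates of 10 male TRAMP mice, 1 single-colour whole-transcript array per mouse. All the mice, controls included, carry the TRAMP transgene, in which the promoter of the prostate secretory gene probasin drives a viral T antigen, so that the promoter confines the tumour-forming protein largely to prostate epithelium. The 5 water mice drank tap water, and the 5 nicotine mice drank 250 µg/ml of nicotine as its tartrate salt in tap water from an age of 8 to 9 weeks. The age at tissue collection was not given in the sources used here, and the numbers in the labels mark separate mice.

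Cells copy their DNA once per cycle. Origins are licensed when the origin recognition complex, Cdc6 and Cdt1 load the ring-shaped MCM helicase, geminin (Gmnn) blocks loading outside the right window, and Cdc45 and the GINS complex then join the ring and turn it on. Most of these genes are transcribed as cells enter S phase under E2F factors, which the retinoblastoma proteins hold in check, and the viral T antigen of TRAMP mice binds the retinoblastoma proteins. The level of such transcripts in a piece of tissue therefore follows the share of cells that are cycling as well as the level in each cell, and in these bulk samples more cells of a type and more RNA per cell cannot be told apart.

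Nicotine mice 1 and 3 differed from the remaining 8 in tissue markers. The secretory granule gene Chga of neuroendocrine cells reached 11.74 log2 units in nicotine 1 and 11.31 in nicotine 3, where the remaining mice read 7.07 to 7.73. Pbsn, the probasin gene itself, read 5.08 in nicotine 3, 9.17 in nicotine 1 and 10.86 to 12.20 elsewhere. The luminal keratin genes were low in nicotine 3 only. Krt8 was at 7.98 in nicotine 3, at 13.14 in nicotine 1, the highest of all mice, and between 12.44 and 12.71 elsewhere. Krt18 was at 6.94 in nicotine 3, 12.41 in nicotine 1 and between 12.53 and 12.66 elsewhere. The prostate transcription factor gene Hoxb13 departed less: it read 10.23 in nicotine 3, 9.98 in nicotine 1 and 10.80 to 11.23 elsewhere. Results below are given for all 10 arrays and for the 8 arrays whose Chga was not above 9 log2 units, that is 3 nicotine mice (2, 4 and 5) against 5 water mice.

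Every one of the 39 genes had a higher mean in nicotine mice than in water mice, with 10 arrays, where 50.7% of all tested genes did, and with 8, where 53.5% did. The median difference of the 39, nicotine minus water, was 0.40 log2 units (a fold of 1.32) with 10 arrays and 0.19 (a fold of 1.14) with 8, where the median over all tested genes was 0.004 and 0.01. In the 10 arrays the differences ran from 0.02 for Mcm4 to 0.99 for Rrm2, and in the 8 from 0.04 for Rfc4 to 0.42 for Uhrf1. The difference was smaller without the 2 arrays for 36 of the 39, all but Mcm4, Gins1 and Gins2. The median ratio of the 8-array to the 10-array difference was 0.565. Neither this count nor this ratio was taken over all tested genes. There the median SD among nicotine mice was 0.261 with the 2 arrays and 0.0788 without them. Whether the differences of the 39 shrank more than those of other genes was not tested.

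No gene passed the test over all genes. By limma with Benjamini-Hochberg adjustment, 0 of 14953 genes (a background of 0%) and 0 of the 39 were past an adjusted p of 0.05 in either fit, and the smallest adjusted p over all genes was 0.458 with 10 arrays and 0.0582 with 8. Of the 39 genes Tk1 alone held that value with 8 arrays, and 31 shared it with 10. Asf1b, a replication gene outside the 39, also held the 8-array value. The value with 10 arrays is a tie of the adjustment, which among the 39 reached up to Dut at an unadjusted limma p of 0.115. Genes outside the 39, such as Chga, held it too, and the share of all genes that did was not counted. At an unadjusted limma p under 0.05, 23 of the 39 (59.0%) were higher with 10 arrays, against a background of 4.28% of all tested genes, and 22 (56.4%) with 8 arrays, against 6.01%. None was lower at that level, against 5.84% and 8.69% of all genes. The groups did not overlap, with every nicotine mouse above every water mouse, in 15 of the 39 (38.5%) with 10 arrays, against 2.02% of all genes, and in 17 (43.6%) with 8, against 4.12%. None lay wholly below the water mice, as 2.88% of all genes did with 10 arrays and 6.47% with 8. When each gene was read by its probe set with the largest variance, 14 members had no overlap with 10 arrays, against 1.99% of all genes. With array weights, which count arrays far from their group for less, 1096 genes and 20 of the 39 passed with 10 arrays, and 1143 genes and 22 of the 39 with 8. Without water 5, 90 genes passed with 8 arrays, among them Tk1 and Pole, and without nicotine 4, 20 passed, with no member. Without nicotine 2, which had the lowest value of nicotine mice 2, 4 and 5 in 26 of the 39 genes, the groups did not overlap in 23 with 10 arrays, against 2.68% of all genes, and in 26 with 8, against 6.52%. Precision is limited by the number of arrays, 5 per group with 10 arrays and 3 nicotine against 5 water mice with 8. The 39 genes were named with earlier results of these data known.

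**Figure D1:**
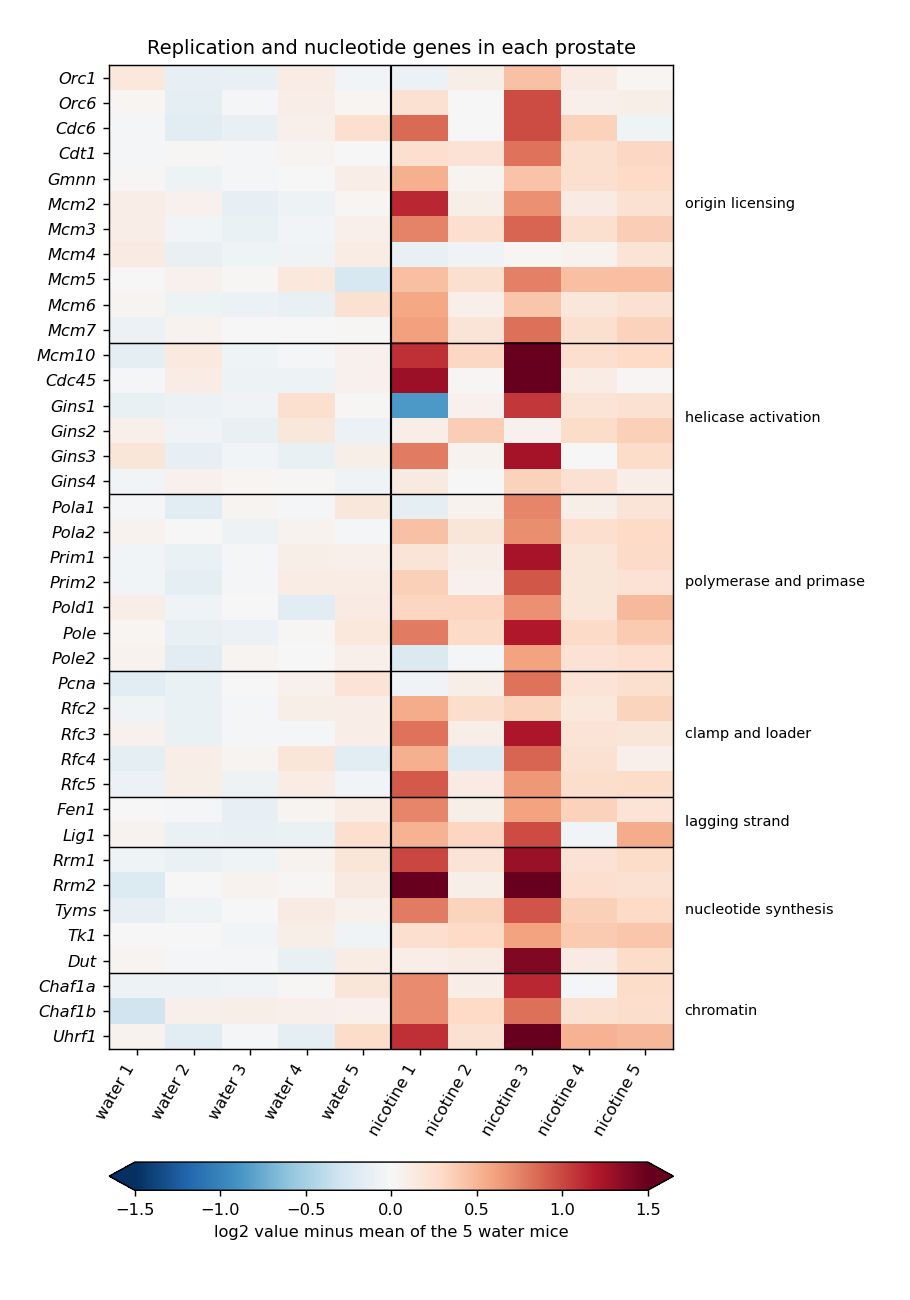
Heat map of the 39 genes (rows, grouped by role) in each of the 10 mice (columns), as the log2 value minus the mean of the 5 water mice. Colours saturate at 1.5 log2 units. Nicotine 3 has the highest value in 31 of 39 genes, nicotine 1 departs downward for Gins1, and Mcm4 stays near the water mean in nearly every mouse. The share of all tested genes that were highest in nicotine 3 was not counted.

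Seen mouse by mouse, the shift was unequal. The median of the 39 genes, relative to the mean of the water mice, was 0.83 log2 units in nicotine 3, 0.53 in nicotine 1, 0.28 in nicotine 5, 0.22 in nicotine 4 and 0.10 in nicotine 2, while the water mice lay between -0.08 and 0.08. Of the 39 genes, 37 were above every water mouse in nicotine 3, 31 in nicotine 1, 32 in nicotine 5, 28 in nicotine 4 and 18 in nicotine 2. The same held for 38.0%, 34.1%, 17.5%, 15.6% and 23.0% of all tested genes in these 5 mice, in that order, beside 94.9%, 79.5%, 82.1%, 71.8% and 46.2% of the 39. Nicotine 3 was the highest of all 10 mice for 31 of the 39 and no water mouse was the highest for any. How often each mouse was the highest was not counted over all tested genes. The spread among water mice was small, with a median SD of 0.11 over the 39 genes, against 0.33 among the 5 nicotine mice and 0.08 among nicotine 2, 4 and 5. Over all tested genes these median SDs were 0.0969, 0.261 and 0.0788.

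Marker lists of other cell types were read in the same mice. Neuroendocrine markers, 11 measured genes, averaged 9.31 in nicotine 1 and 10.51 in nicotine 3, between 7.24 and 7.65 in nicotine 2, 4 and 5, and between 7.05 and 7.75 in water mice. This list includes Chga, the gene used to set nicotine 1 and 3 apart, so that rule in part fixed the list averages. In nicotine 1 Scg2 (6.767) and Stmn2 (7.36) lay within the ranges of water mice, 6.522 to 6.769 and 6.89 to 8.67. The other measured genes of the list were above every water mouse there. Prostate luminal markers, 8 measured genes, averaged 6.72 in nicotine 3 and 11.12 in nicotine 1, between 11.88 and 12.13 in nicotine 2, 4 and 5, and between 11.83 and 12.16 in water mice. Neither list separated nicotine 2, 4 and 5 from water mice. Fibroblast markers did: all 8 measured genes had a lower mean in nicotine 2, 4 and 5, and the list averaged 9.12 to 9.39 in these 3 mice, 9.49 in nicotine 1 and 8.64 in nicotine 3, against 9.72 to 10.09 in water mice. All 8 macrophage markers had a lower mean too, the list averaging 8.20 to 8.51 in nicotine 2, 4 and 5 against 8.41 to 9.24 in water mice. In nicotine 1 and 3 the macrophage list averaged 8.22 and 7.92. The smooth muscle list read 8.12 in nicotine 3, 10.36 in nicotine 1, 10.92 to 11.18 in nicotine 2, 4 and 5 and 10.79 to 11.05 in water mice. Lymphocyte markers averaged 6.44 in nicotine 3, 6.51 in nicotine 1, 6.56 to 6.65 in nicotine 2, 4 and 5 and 6.57 to 6.88 in water mice. Skeletal muscle markers averaged 10.28 in nicotine 1, where the remaining 9 mice lay from 7.40 to 7.76. Seminal vesicle markers varied within both groups. The list averaged 7.21, 7.31, 12.06, 13.15 and 12.95 in water mice 1 to 5. It averaged 6.86, 7.96, 5.92, 8.54 and 12.52 in nicotine mice 1 to 5. All 10 genes of the list had a lower mean in nicotine mice, with 10 arrays and with 8. The part of these tissue differences in the values of the replication genes was not tested, apart from the fits with and without nicotine 1 and 3 and with the seminal vesicle list as a covariate, in which 17 members with 10 arrays, against 1.38% of all genes, and 26 with 8, against 5.22%, were higher at an unadjusted limma p under 0.05.

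**Figure D2:**
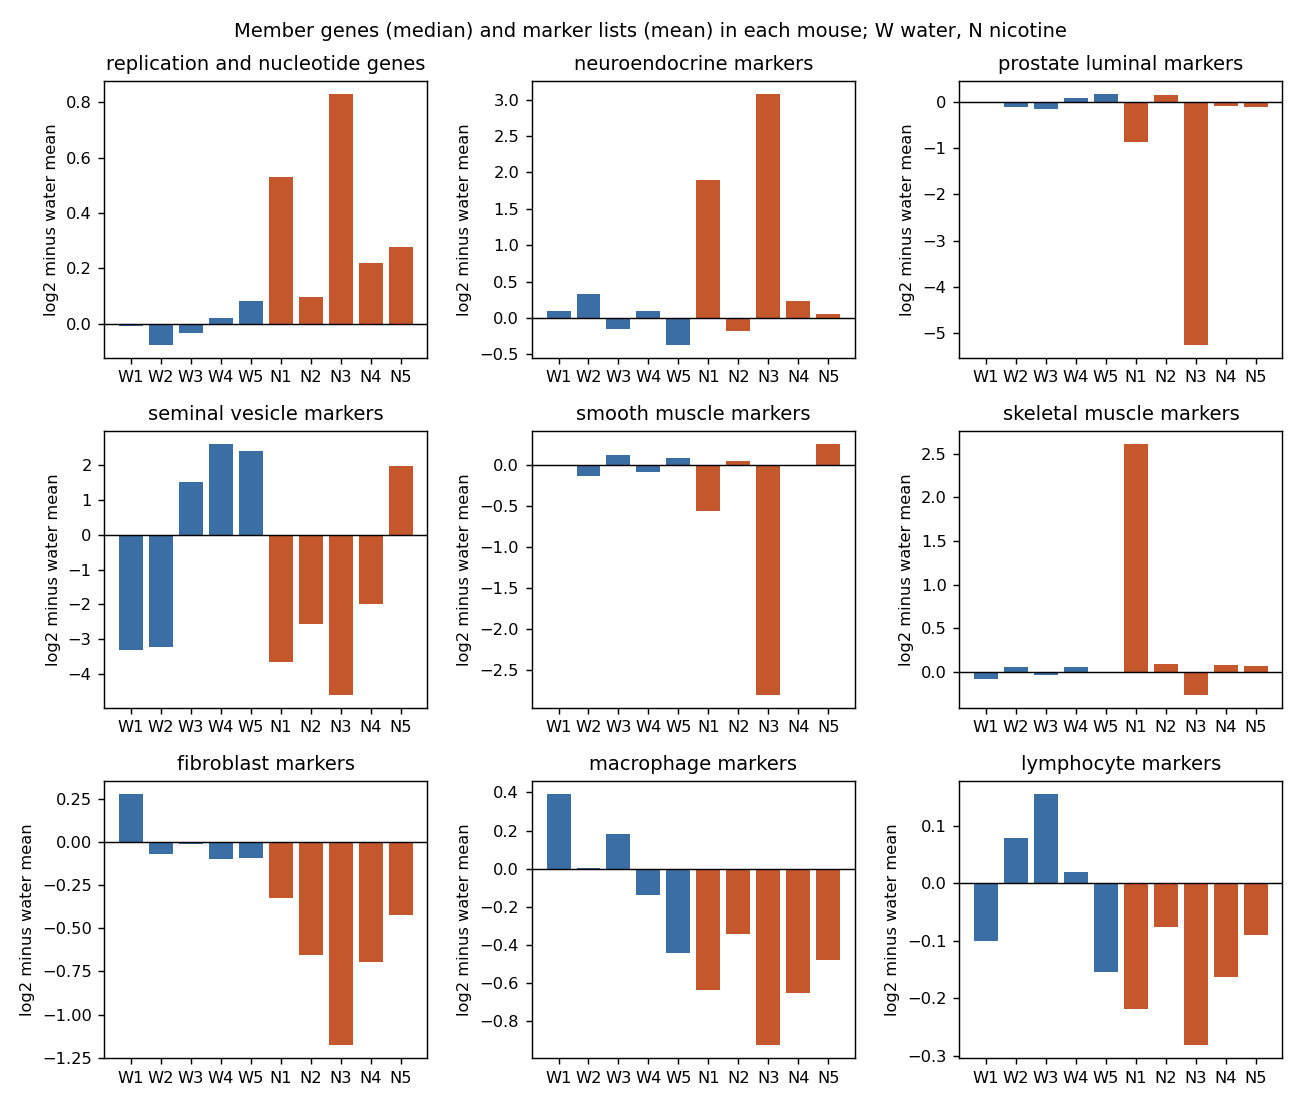
Bars give, for each mouse (W water, N nicotine), the median of the 39 replication and nucleotide genes and the mean of each marker list, all as log2 units minus the water mean. The vertical scales differ between panels. The median of the replication genes, though not each gene, is above all water mice in the 5 nicotine mice, by little in N2 (0.10 against 0.08 in W5). The neuroendocrine list, which includes Chga, is highest in N1 and N3. The fibroblast list is below all water mice in the 5 nicotine mice.

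The sequences around the start sites of the 39 genes were searched for the E2F-type site, in the 4 spellings TTTCCCGC, TTTGGCGC, TTTCGCGC and TTTGCCGC on both strands. RefSeq promoter windows of assembly GRCm38.p6, from 250 bases before to 50 after a start, were at hand for 31 of the 39 genes, and 14 of these (45.2%) held a match in at least 1 window. Among all 27025 genes with a window, a set not limited to the genes measured or tested here, the share was 2.60%. Among 40 other replication genes it was 30.0%, and among 15 other deoxynucleotide and folate genes it was 0 of 15. Of 15 genes of purine and pyrimidine ring synthesis and salvage, 1 (6.67%) held a match. CCAAT, the box bound by NF-Y, was in a window of 18 of the 31 genes against 41.1% of the 27025 genes. TTTGAA, the cell cycle homology element of mitotic genes, was in 4 of 31 against 20.2%. Matches may overlap each other, as they do in Mcm5 and Mcm6. The 5 stretches below show matches that lie wholly upstream of the start in 3 helicase subunits, the loader Cdc6 and Uhrf1, the member with the largest 8-array difference, chosen after values were seen. Matched letters are in capitals, the strand is that of the gene, and 20 bases flank the outer matches. They lie at chr8:75109336-75109387 (plus strand), chr1:128359725-128359835 (minus), chr5:138172021-138172068 (minus), chr11:98907993-98908040 (plus) and chr17:56304108-56304155 (plus), in the order printed.
Mcm5: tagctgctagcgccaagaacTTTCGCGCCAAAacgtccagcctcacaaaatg
Mcm6: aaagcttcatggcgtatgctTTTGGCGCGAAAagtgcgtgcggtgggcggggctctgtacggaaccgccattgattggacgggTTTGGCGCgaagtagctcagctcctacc
Mcm7: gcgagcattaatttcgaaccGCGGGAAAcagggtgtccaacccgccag
Cdc6: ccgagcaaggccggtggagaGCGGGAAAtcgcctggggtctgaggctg
Uhrf1: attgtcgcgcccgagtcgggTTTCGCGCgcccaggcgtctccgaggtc

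In Mcm5 the 2 matches overlap, with first bases at -153 and -149 from the start, and in Mcm6 at -110 and -106, with a further match at -47. The stretches of Mcm7, Cdc6 and Uhrf1 each hold 1 match, at -165, -138 and -185, and the Mcm7 window holds 1 more after the start, at 17, not printed. The median difference was 0.43 with 10 arrays and 0.21 with 8 in the 14 genes with a match, and 0.44 and 0.19 in the 17 genes with a window and no match. Groups did not overlap with 10 arrays in 5 of the 14 and 8 of the 17, all higher in nicotine, against 2.02% of all tested genes. No match says only that these letters are not in the window searched.

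**Figure D3:**
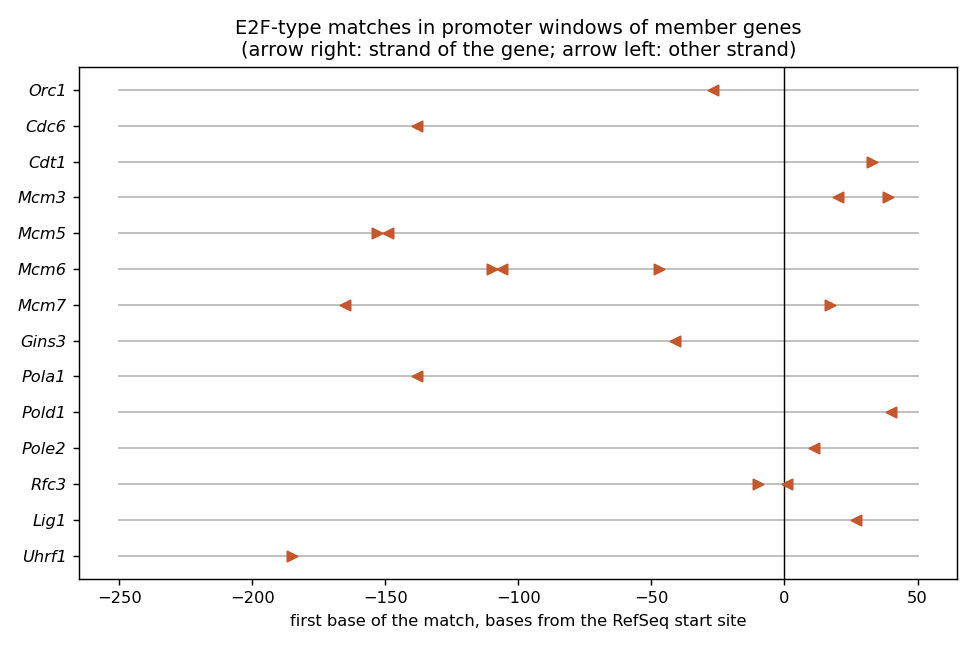
Position of each E2F-type match in the promoter windows of the 14 member genes that hold any, in bases from the RefSeq start site. Right-pointing triangles mark matches on the strand of the gene and left-pointing triangles the other strand. First bases of matches lie from -185 to 40.

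Of the 5 genes of deoxynucleotide supply, 3 were higher at an unadjusted p under 0.05 with 10 arrays and 5 with 8, and their median difference was 0.54 and 0.23. Counts by role, here and below, stand beside the shares over all tested genes. With 10 arrays 4.28% were higher at that limma p and 2.02% had every nicotine mouse above every water mouse. With 8 arrays these shares were 6.01% and 4.12%. Each ± after a difference is its SE in the limma fit. Tk1, the thymidine kinase that salvages thymidine in S phase, read 8.73, 8.74, 8.70, 8.83 and 8.68 log2 units in mice 1 to 5 given water and 8.99, 9.03, 9.34, 9.13 and 9.15 in mice 1 to 5 given nicotine, the order kept below. So the groups did not overlap and nicotine 1 was the lowest of its group. The difference was 0.39 ± 0.07 (SE), a fold of 1.31, with an unadjusted limma p of 0.000396, and 0.37 ± 0.06 with 8 arrays, so that leaving out nicotine 1 and 3 changed it little. Its limma adjusted p of 0.0582 with 8 arrays equalled the smallest of all genes, which no other member did. Over 18 alternatives it ran from 0.00739 with array weights to 0.298 with the mouse number as a block, and it was under 0.05 in 5 of them, among these 0.0392 without water 5.

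A second probe set bears the symbol Tk1. Of the 10 nearest probe set numbers that carry a gene, 0 of the kept probe set's neighbours lie on the chromosome of Tk1 in RefSeq, and the same was found for the kept probe set of Pcna, while for both genes all 10 neighbours of the other probe set do. Whether the kept probe set, whose values are given above, reads Tk1 itself or a like sequence elsewhere in the genome was not tested. The other Tk1 probe set read 8.02, 7.99, 7.95, 8.00 and 8.24 with water and 8.22, 8.38, 9.11, 8.64 and 8.78 with nicotine. It was lower in nicotine 1 than in water 5, so the groups overlapped with 10 arrays and did not with 8. Its difference was 0.59 ± 0.16 with 10 arrays (limma unadjusted p = 0.00376) and 0.56 ± 0.10 with 8 (limma adjusted p = 0.0711), larger than that of the kept probe set in both. The pair of Pcna probe sets differed from each other by at most 0.03 log2 units in any mouse and gave the same differences, 0.26 with 10 arrays and 0.18 with 8.

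Tyms, thymidylate synthase, which makes the thymidine nucleotide anew, read 9.62, 9.68, 9.75, 9.87 and 9.81 with water and 10.52, 10.07, 10.69, 10.10 and 10.04 with nicotine. All 5 nicotine mice were above all water mice, with nicotine 2, 4 and 5 close together. Its difference was 0.54 ± 0.14 with 10 arrays (limma unadjusted p = 0.00266) and 0.33 ± 0.06 with 8. The subunits of ribonucleotide reductase, which turns ribonucleotides into deoxynucleotides, had their highest values in nicotine 1 and 3. Rrm1, the large catalytic subunit, read 10.62, 10.59, 10.62, 10.74 and 10.86 with water and 11.69, 10.89, 11.99, 10.90 and 10.96 with nicotine, without overlap. Its difference of 0.60 ± 0.22 with 10 arrays (limma unadjusted p = 0.0209) became 0.23 ± 0.07 with 8. Rrm2, the small subunit that is made and destroyed with S phase, read 8.63, 8.83, 8.88, 8.86 and 8.97 with water and 10.34, 8.92, 11.69, 9.09 and 9.07 with nicotine. It had the largest difference of the 39 genes, 0.99 ± 0.49, and the largest SD among nicotine mice, 1.19, with nicotine 3 at 2.85 and nicotine 1 at 1.504 log2 units above the water mean. With 8 arrays the difference was 0.19 ± 0.08, and nicotine 2 lay within the water range.

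Dut, which clears dUTP so that uracil is kept out of DNA, read 9.08, 9.01, 9.01, 8.93 and 9.15 with water and 9.13, 9.16, 10.42, 9.16 and 9.31 with nicotine. Nicotine 3 stood far above every other mouse, nicotine 1 lay just below water 5, and nicotine 2, 4 and 5 lay just above it. Its difference was 0.40 ± 0.23 with 10 arrays, at a limma unadjusted p of 0.115, and 0.17 ± 0.06 with 8, where the groups did not overlap. Of the 5 genes, 3 had groups that did not overlap with 10 arrays and 4 with 8.

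**Figure D4:**
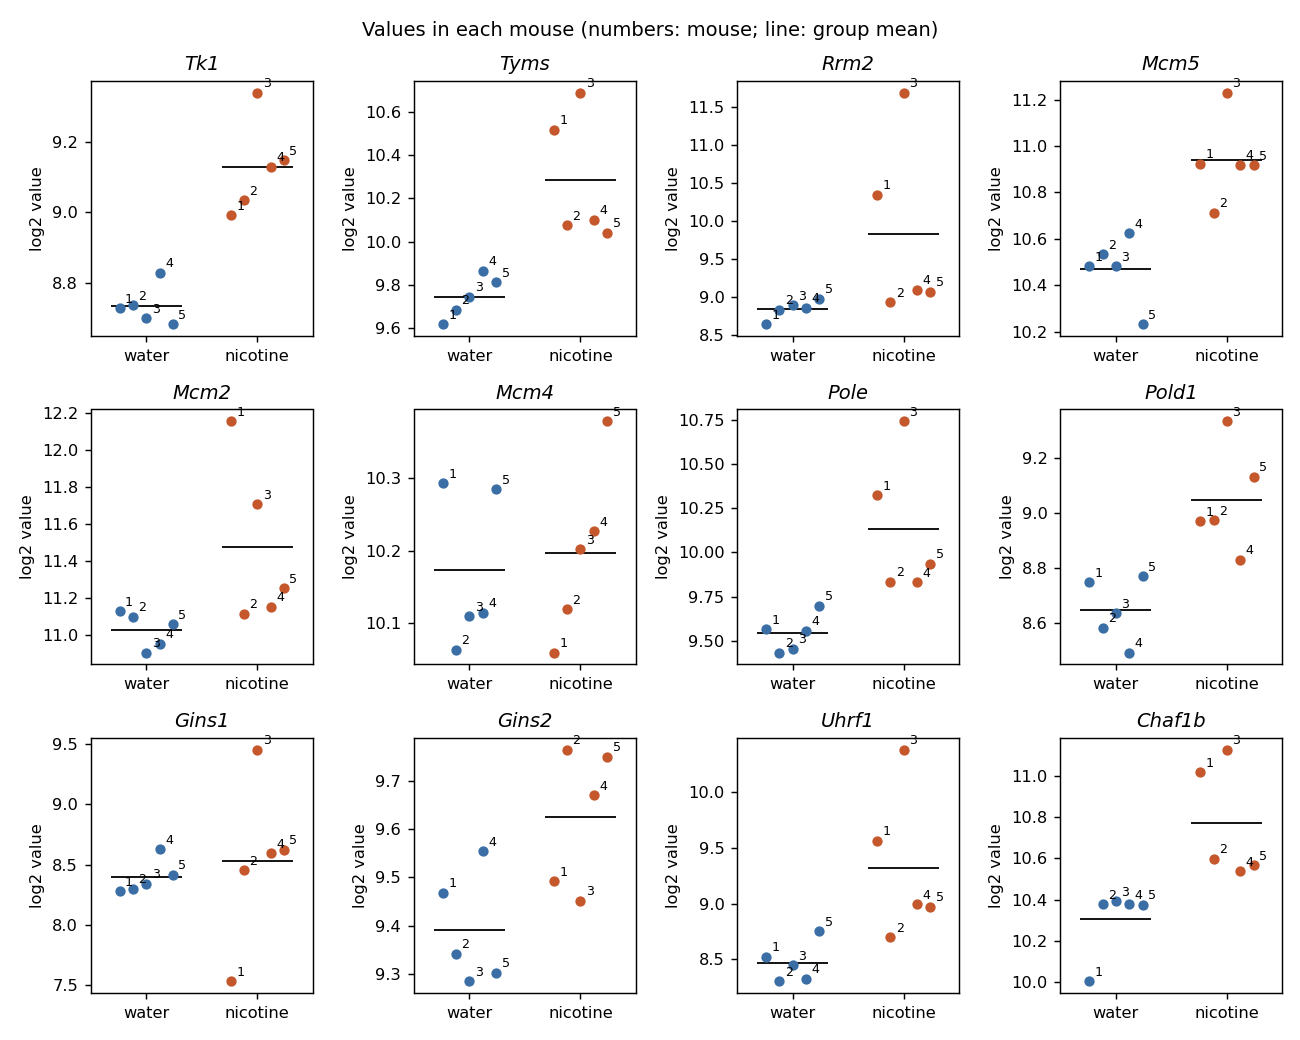
Log2 values of 12 of the 39 genes in each mouse (points, numbered by mouse), water in blue and nicotine in orange, with the group mean as a line. The vertical scales differ and do not start at 0. Tk1, Tyms, Mcm5, Pole, Pold1 and Chaf1b show no overlap of the groups, Rrm2 and Uhrf1 are drawn up by nicotine 3 and 1, and Gins1 is split by them. Tk1 is shown by its kept probe set, and in its other probe set the groups overlap with 10 arrays.

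Origin licensing genes, 11 in all, had a median difference of 0.37 with 10 arrays and 0.16 with 8, with 7 and 5 at an unadjusted p under 0.05 and 4 without overlap in each fit. Mcm5, a subunit of the MCM ring, read 10.48, 10.53, 10.48, 10.63 and 10.23 with water and 10.92, 10.71, 11.23, 10.92 and 10.92 with nicotine. No nicotine value was below a water value, and nicotine 1, 4 and 5 shared nearly the same level. The difference was 0.47 ± 0.11 with 10 arrays (limma unadjusted p = 0.00132) and 0.38 ± 0.09 with 8. Mcm3, a further subunit, read 9.35, 9.20, 9.14, 9.20 and 9.32 with water and 9.99, 9.50, 10.12, 9.48 and 9.62 with nicotine, with a difference of 0.50 ± 0.13 and 0.29 ± 0.06 in the 10 and 8 arrays. Mcm7 read 10.43, 10.57, 10.53, 10.53 and 10.53 with water and 11.13, 10.71, 11.35, 10.76 and 10.86 with nicotine, with differences of 0.45 ± 0.12 and 0.26 ± 0.06. The groups did not overlap for Mcm3 or Mcm7.

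The 6 subunits of the MCM ring, which is built from equal numbers of each, differed in which mice were high. Mcm2 read 11.13, 11.10, 10.90, 10.95 and 11.06 with water and 12.16, 11.12, 11.71, 11.15 and 11.25 with nicotine. Here nicotine 1 was the highest, 1.13 log2 units above the water mean, and nicotine 2 lay within the water range, so the difference of 0.45 ± 0.19 became 0.15 ± 0.07 with 8 arrays. Mcm6 also had its highest value in nicotine 1, with a difference of 0.29 ± 0.11 that became 0.16 ± 0.08. Mcm4 read 10.29, 10.06, 10.11, 10.11 and 10.28 with water and 10.06, 10.12, 10.20, 10.23 and 10.38 with nicotine. Nicotine 5 alone was above the water range, the difference was 0.02 ± 0.08 with 10 arrays (limma unadjusted p = 0.769), the smallest of the 39, and 0.07 ± 0.08 with 8, and nicotine 3 was only 0.03 above the water mean where the other 5 subunits were 0.41 to 0.87 above it. The sign of the Mcm4 difference turned without water 2 (-0.0032) or without nicotine 5 (-0.02). Mcm4, like the other genes named for their departure, was picked out after its values were seen, and a difference between subunits was not tested.

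Of the loaders, Cdt1 stood out for its narrow spread: it read 9.87, 9.92, 9.88, 9.95 and 9.90 with water, an SD of 0.03 and the smallest of the 39 genes, and 10.16, 10.13, 10.72, 10.15 and 10.22 with nicotine. The groups did not overlap, and nicotine 1, 2, 4 and 5 lay close together. Its difference was 0.37 ± 0.11 with 10 arrays (limma unadjusted p = 0.00898) and 0.26 ± 0.05 with 8 (limma adjusted p = 0.0879). Gmnn, the inhibitor that binds Cdt1, had a difference of 0.31 ± 0.09 and 0.19 ± 0.07, with nicotine 2 below water 5. Cdc6 was above the water range in nicotine 1, 3 and 4. It read 8.35, 8.21, 8.26, 8.45 and 8.62 with water and 9.23, 8.37, 9.36, 8.73 and 8.31 with nicotine, and the difference of 0.42 ± 0.21 became 0.09 ± 0.11 with 8 arrays, and was -0.04 when nicotine 4 was left out as well. The origin recognition subunits, which mark the origins, differed less than the median member: Orc6 by 0.27 ± 0.17 and Orc1 by 0.12 ± 0.11 with 10 arrays and by 0.06 ± 0.06 and 0.08 ± 0.07 with 8, with Orc6 above the water range in nicotine 1 and, by far more, nicotine 3.

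The 6 helicase activation genes had a median difference of 0.36 with 10 arrays and 0.14 with 8, with 2 at an unadjusted p under 0.05 in each fit and 1 without overlap with 10 arrays and 2 with 8. Mcm10, which helps start the loaded helicase, read 7.64, 7.93, 7.72, 7.76 and 7.85 with water and 8.87, 8.09, 9.59, 8.03 and 8.08 with nicotine. The groups did not overlap, nicotine 3 was the highest by far, and its difference was 0.75 ± 0.29 with 10 arrays (limma unadjusted p = 0.0251) and 0.29 ± 0.07 with 8 (0.00167). Cdc45, a core part of the active helicase, read 8.81, 8.96, 8.77, 8.77 and 8.91 with water and 10.13, 8.86, 10.45, 8.95 and 8.87 with nicotine. Only nicotine 1 and 3 were above the water range, so that the difference was 0.61 ± 0.32 with them and 0.05 ± 0.06 without, a ratio of 0.08 and the smallest of the 39 genes.

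The GINS complex is built from equal numbers of its 4 subunits, whose transcripts differed in which mice were high; a difference between them was not tested. Gins1 read 8.28, 8.30, 8.34, 8.63 and 8.42 with water and 7.53, 8.45, 9.45, 8.60 and 8.62 with nicotine. Nicotine 1 was 0.86 log2 units below the water mean and below every other mouse, while nicotine 3 was 1.06 above it, a gap of 1.92 that was the widest of the 39 genes between these 2 mice. The difference was 0.14 ± 0.29 with 10 arrays (limma unadjusted p = 0.641), 0.16 ± 0.08 with 8, and -0.09 when only nicotine 3 was left out. Gins2 read 9.47, 9.34, 9.28, 9.55 and 9.30 with water and 9.49, 9.76, 9.45, 9.67 and 9.75 with nicotine. Nicotine 1 and 3 lay within the water range and nicotine 2, 4 and 5 above it, giving 0.24 ± 0.09 with 10 arrays (limma unadjusted p = 0.024) and 0.34 ± 0.07 with 8 (0.000721). Gins3 was highest in nicotine 3 and 1 (0.48 ± 0.23, then 0.11 ± 0.09). Gins4 read 10.27, 10.38, 10.35, 10.33 and 10.25 with water and 10.46, 10.31, 10.67, 10.55 and 10.41 with nicotine, with differences of 0.16 ± 0.08 and 0.11 ± 0.06 and nicotine 2 inside the water range.

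Among the 7 polymerase and primase genes, 4 had groups without overlap in both fits, Pold1, Pole, Pola2 and Prim1. Pold1, the catalytic subunit of the lagging strand polymerase delta, read 8.75, 8.58, 8.64, 8.49 and 8.77 with water and 8.97, 8.97, 9.33, 8.83 and 9.13 with nicotine. Its difference was 0.40 ± 0.10 with 10 arrays (limma unadjusted p = 0.00287) and 0.33 ± 0.08 with 8, close to each other. Pole, the catalytic subunit of the leading strand polymerase epsilon, read 9.57, 9.43, 9.46, 9.56 and 9.700 with water and 10.32, 9.83, 10.74, 9.83 and 9.94 with nicotine. Nicotine 2 and 4 were level with each other just above the highest water mouse, and the difference was 0.59 ± 0.17 with 10 arrays (limma unadjusted p = 0.00662) and 0.32 ± 0.07 with 8 (limma adjusted p = 0.0953). Without water 5 the 8-array limma adjusted p of Pole was 0.0403, past the threshold, and over 18 alternatives it ran from 0.0104 to 0.334. Pola2, the accessory subunit of the priming polymerase alpha, read 9.63, 9.57, 9.50, 9.62 and 9.55 with water and 10.01, 9.76, 10.27, 9.83 and 9.88 with nicotine, with differences of 0.38 ± 0.10 and 0.25 ± 0.05.

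Prim1 and Prim2, the primase subunits, had differences of 0.40 ± 0.20 and 0.35 ± 0.15 with 10 arrays and 0.19 ± 0.07 and 0.15 ± 0.07 with 8, both highest in nicotine 3. Pola1, the catalytic subunit of polymerase alpha, had a difference of 0.19 ± 0.15 and 0.11 ± 0.08, and Pole2, the second subunit of polymerase epsilon, 0.17 ± 0.14 and 0.15 ± 0.08. In nicotine 1 Pole2 was 0.22 log2 units below the water mean and Pola1 0.14 below it, whereas Pole and Pola2, their partners, were 0.78 and 0.44 above it. Nicotine 1 was below every water mouse for 3 of the 39 genes, Mcm4, Gins1 and Pole2, and above every water mouse for 31. Nicotine 3 was below none, and within the water range only for Mcm4 and Gins2. Over all tested genes, 38.6% were below every water mouse in nicotine 1 and 42.2% in nicotine 3. The shares above every water mouse were 34.1% and 38.0%.

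The clamp Pcna, the ring that tethers the polymerases, read 11.49, 11.56, 11.67, 11.73 and 11.88 with water and 11.62, 11.75, 12.48, 11.87 and 11.91 with nicotine. Nicotine 3 stood well above the rest and nicotine 1 below the mean of the water mice, with a difference of 0.26 ± 0.15 with 10 arrays (limma unadjusted p = 0.123) and 0.18 ± 0.09 with 8. Rfc2, of the clamp loader, read 9.28, 9.23, 9.30, 9.41 and 9.43 with water and 9.89, 9.59, 9.66, 9.48 and 9.67 with nicotine, a difference of 0.33 ± 0.08 with no overlap (limma unadjusted p = 0.00294), and 0.25 ± 0.07 with 8. Rfc5, of the same loader, read 10.92, 11.09, 10.92, 11.11 and 10.96 with water and 11.92, 11.12, 11.65, 11.26 and 11.27 with nicotine, also without overlap but with nicotine 2 only just above water 4. Its difference was 0.45 ± 0.15 with 10 arrays and 0.22 ± 0.07 with 8. Rfc3 read 9.23, 9.07, 9.14, 9.14 and 9.27 with water and 9.98, 9.26, 10.39, 9.38 and 9.35 with nicotine, with differences of 0.50 ± 0.21 and 0.16 ± 0.06, nicotine 2 lying just below water 5. Rfc4 had its lowest value of all mice in nicotine 2, and its difference of 0.30 ± 0.18 became 0.04 ± 0.11 with 8 arrays, and was -0.0044 without water 5 and -0.05 without nicotine 4.

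Both genes of lagging strand maturation were higher at an unadjusted p under 0.05 with 10 arrays, and the groups overlapped in both. Fen1, the nuclease that trims the primer flap, read 8.36, 8.32, 8.23, 8.39 and 8.46 with water and 9.09, 8.44, 8.96, 8.70 and 8.56 with nicotine. Only nicotine 2 fell inside the water range, just below water 5. The difference was 0.39 ± 0.12 with 10 arrays (limma unadjusted p = 0.0101) and 0.21 ± 0.07 with 8. Lig1, the ligase that seals the fragments, read 10.17, 10.01, 9.999, 10.01 and 10.36 with water and 10.63, 10.43, 11.08, 10.07 and 10.67 with nicotine, with nicotine 4 inside the water range. Its difference was 0.47 ± 0.17 with 10 arrays and 0.28 ± 0.13 with 8, where the unadjusted limma p was 0.0548.

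Of the 3 chromatin factors, Uhrf1 had the second largest difference of the 39 genes, after Rrm2. Uhrf1, which brings the maintenance DNA methyltransferase to newly copied DNA, read 8.52, 8.30, 8.45, 8.33 and 8.75 with water and 9.56, 8.70, 10.38, 8.99 and 8.97 with nicotine. Nicotine 2 lay just below water 5, the other 4 nicotine mice above all water mice. The difference was 0.85 ± 0.28 with 10 arrays, a fold of 1.8 (limma unadjusted p = 0.0141), and 0.42 ± 0.11 with 8, a fold of 1.33 and the largest of the 39 there. Chaf1b, a subunit of the chaperone that deposits histones behind the fork, read 10.003, 10.38, 10.39, 10.38 and 10.38 with water and 11.02, 10.60, 11.13, 10.54 and 10.57 with nicotine, without overlap. Water 1 was the lowest, with the other 4 water mice close together, and the difference was 0.46 ± 0.14 with 10 arrays (limma unadjusted p = 0.00805) and 0.26 ± 0.09 with 8. Its partner Chaf1a read 8.70, 8.69, 8.72, 8.79 and 8.96 with water and 9.48, 8.87, 9.90, 8.75 and 9.05 with nicotine, a difference of 0.44 ± 0.20 that became 0.12 ± 0.08, with nicotine 2 and 4 inside the water range.

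**Figure D5:**
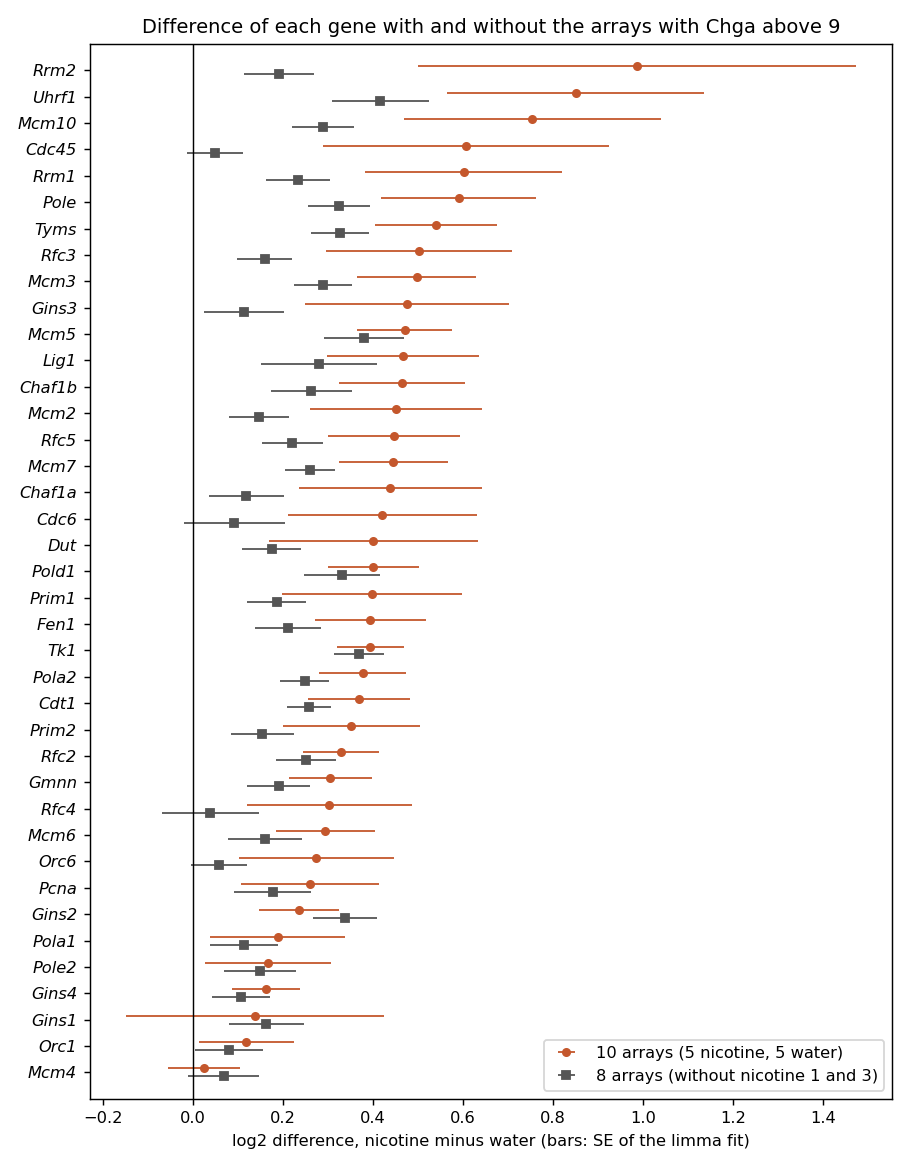
Difference of each of the 39 genes, nicotine minus water in log2 units, with the SE of the limma fit as bars, for 10 arrays (circles) and for the 8 arrays without nicotine 1 and 3 (squares), in the order of the 10-array value. All points are above 0. Tk1, Mcm5 and Pold1 keep most of their difference in the 8 arrays, and Rrm2, Cdc45 and Rfc4 lose most of theirs.

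Genes of the same pathways outside the 39 were read from 3 lists, chosen, like the members, with earlier results of these data known. Of 47 other replication genes 46 were tested, and 38 had a positive difference with 10 arrays, against 50.7% of all tested genes, with a median of 0.24. With 8 arrays 33 had a positive difference and 13 a negative one, against 53.5% positive over all tested genes, and the median was 0.08. At an unadjusted limma p under 0.05, 12 were higher and 1 lower with 10 arrays, against 4.28% and 5.84% of all tested genes. With 8 arrays 15 were higher and 3 lower, against 6.01% and 8.69%. By limma 0 were past an adjusted p of 0.05. Asf1b, a histone chaperone that feeds the Chaf1 complex, read 9.55, 9.85, 9.73, 9.76 and 9.85 with water and 10.998, 10.21, 11.54, 10.19 and 10.22 with nicotine, without overlap. Its difference of 0.88 ± 0.26 with 10 arrays and 0.46 ± 0.07 with 8 was numerically above that of Chaf1a and Chaf1b in both. Timeless, of the fork protection complex, differed by 0.53 ± 0.14 and 0.32 ± 0.08, the polymerase delta subunit Pold3 by 0.34 ± 0.10 and 0.21 ± 0.05, and Rnaseh2c, of the enzyme that removes ribonucleotides from DNA, by 0.24 ± 0.06 and 0.27 ± 0.06. Orc4, of the origin recognition complex, was lower. It read 9.21, 9.27, 9.25, 9.16 and 9.11 with water and 8.54, 8.89, 9.18, 9.06 and 8.76 with nicotine, with differences of -0.31 ± 0.11 (limma unadjusted p = 0.0221) and -0.29 ± 0.07. All nicotine mice but nicotine 3 were below every water mouse.

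Of 18 other deoxynucleotide and folate genes 16 were tested, with a median difference of 0.08 with 10 arrays. At an unadjusted limma p under 0.05 with 10 arrays, 2 were higher and 1 lower, against 4.28% and 5.84% of all tested genes. With 8 arrays 3 were higher and 0 lower, against 6.01% and 8.69%, and the median difference was 0.06. The dCTP pyrophosphatase gene Dctpp1 differed by 0.50 ± 0.18 and 0.23 ± 0.09, the nucleoside diphosphate kinase gene Nme1 by 0.36 ± 0.14 and 0.15 ± 0.07, and the deoxycytidine kinase gene Dck by 0.70 ± 0.32 and 0.15 ± 0.07. Rrm2b, the p53-inducible counterpart of Rrm2 that works outside S phase, read 8.33, 8.34, 8.44, 8.43 and 8.46 with water and 8.03, 8.29, 8.01, 8.37 and 8.21 with nicotine. Its difference was -0.22 ± 0.08 with 10 arrays (limma unadjusted p = 0.0241) and -0.11 ± 0.06 with 8, opposite in sign to that of Rrm2. Tk2, the mitochondrial thymidine kinase, read 8.97, 9.04, 9.10, 9.00 and 8.94 with water and 8.78, 8.95, 8.39, 8.88 and 8.94 with nicotine, with differences of -0.22 ± 0.11 and -0.09 ± 0.05, opposite in sign to Tk1. Both counterparts were lowest in nicotine 3, where Tk1 and Rrm2 were highest. Of 17 genes of purine and pyrimidine ring synthesis and salvage 16 were tested, with a median difference of 0.04 with 10 arrays and 0.02 with 8. With 10 arrays 2 were higher at an unadjusted limma p under 0.05, against 4.28% of all tested genes. They were the CTP synthase gene Ctps (0.53 ± 0.19, then 0.21 ± 0.07 with 8 arrays) and the purine synthesis gene Pfas (0.36 ± 0.15, then 0.16 ± 0.08). In the 8 arrays 1 gene of this list was higher and 1 lower at that limma p, against 6.01% and 8.69%. The pyrimidine gene Umps had 0.50 ± 0.24 and 0.10 ± 0.06, and the purine gene Atic 0.31 ± 0.16 and 0.07 ± 0.07.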

How the data were processed

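Per the labels' protocols, Trizol-extracted prostate RNA was amplified and put on single-colour whole-transcript arrays with a biotin label. The authors deposited log2 values of 35556 probe sets in 10 arrays, read as log2 from their range of 3.59 to 14.1. Background correction, summarisation, normalization and scan batches were not given in the sources used here. Names came from the annotation of the array platform, possibly old: 21789 probe sets had 1 symbol, 1621 several, and 12146 were unnamed there. Each gene took its single-symbol probe set with the highest mean, and genes in the lowest 25% by mean (under 6.55) were not tested. The fit used limma 3.58.1 in R 4.3.3 (lmFit, eBayes, two-sided), with Benjamini-Hochberg adjustment over 14953 genes at 0.05, with and without arrays with Chga above 9. It was also run on simulated data in which both groups had the same SD. That run does not check the fit for the unequal spread of the groups with 10 arrays.

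The 39 members and all lists were chosen with earlier results of these data known. Values in every mouse were given for at most 3 members of each role, by smallest unadjusted p with 10 arrays. Further members shown mouse by mouse (Cdc6, Cdt1, Mcm2, Mcm4, Cdc45, Gins1, Pcna, Rrm2, Dut) and Orc4 were chosen after their values were seen. Each list of other pathway genes gave the 4 with the smallest unadjusted p, plus Tk2 and Rrm2b. Some genes of the marker and pathway lists are not reported here. Alternatives were other filters and probe set rules, renewed quantile normalization, median centring, trended and robust eBayes, array weights, a block for mouse number, a seminal vesicle covariate and omission of each mouse.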

Additional observations from a re-analysis of the deposited data

Results flagged for a closer look

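In each group of 5 mice, the highest and lowest value of every one of the 39 genes was set against its neighbour, and 5 of the 78 groups held a value whose gap to the nearest other exceeded 0.71 of the group's range. Chance flags about 1 in 20 groups. In 4 of the 5 the value was that of nicotine 3, high: 10.33 log2 units for Orc6, 10.72 for Cdt1, 10.68 for Prim1 and 10.42 for Dut. The fifth was Chaf1b in water 1, low at 10.003. Without nicotine 3 and nicotine 1 the differences of these 5 genes, nicotine minus water, were 0.06 for Orc6, 0.26 for Cdt1, 0.19 for Prim1, 0.17 for Dut and 0.26 for Chaf1b.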

How the results depend on the processing

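With array weights, 1096 genes passed with 10 arrays, 20 of them members, and 1143 with 8 arrays, 22 of them members. In the 8 arrays, leaving out the 50% lowest genes gave 18 genes past the threshold, quantile normalization 18 and a trended and robust eBayes 27, each with 1 member, Tk1, and the seminal vesicle covariate gave 2 genes and 0 members. Leaving out 1 mouse gave 0 to 90 genes and 0 to 2 members past the threshold with 8 arrays (90 and 2 without water 5, 20 and 0 without nicotine 4) and 0 of both with 10. The members without overlap then ranged from 15 to 23 with 10 arrays (2.15% to 4.27% of all genes) and from 17 to 26 with 8 (4.45% to 10%), the highest member counts without nicotine 2. Signs turned for 4 members: with 1 mouse left out, the difference ran from -0.021 to 0.058 for Mcm4 and from -0.093 to 0.39 for Gins1 with 10 arrays, and from -0.037 to 0.17 for Cdc6 and from -0.055 to 0.15 for Rfc4 with 8. The cause of these changes was not tested. Over all alternatives the members higher at an unadjusted p under 0.05 numbered 17 to 31 with 10 arrays, where 1.38% to 12% of all genes were, and 17 to 33 with 8, where 3.98% to 12.6% were. The highest shares and counts were those with array weights. Mouse numbers occur in both groups, but deviations of same-numbered mice correlated from -0.13 to 0.16, so they were not taken as pairs. With the mouse number as a block, 22 members had an unadjusted p under 0.05 with 10 arrays, against 2.53% of all genes, and 22 with 8, against 4.95%, and 0 genes passed.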
